A study of Homo sapiens with 12 samples.

Results

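The 10 genes YAP1, WWTR1, TEAD1, TEAD4, LATS2, CTGF, CYR61, ANKRD1, AMOTL2 and AXL were taken by their gene symbols from the 23284 symbols listed for each library. All 10 passed the filter on low values that left 12946 genes for testing. The files use the older symbols CTGF, now CCN2, and CYR61, now CCN1.

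The libraries were made from PANC-1, a human pancreatic cancer cell line carrying a retroviral reporter, ZsGreen fused to the degron of ornithine decarboxylase, which accumulates in cells with low proteasome activity. Degron (++) cells came from a repeatedly sorted line and were its most fluorescent cells, and degron (−) cells were the infected line, in which few cells fluoresced. Each population gave 3 groups of 2 libraries, named here by dose and time as 0 Gy/48 h (unirradiated), 4 Gy/30 h and 4 Gy/48 h. The start of the hours is not given by the labels, which name the libraries taken as degron (−) ZsGreen– in the titles but d+ in the descriptions. By the labels all libraries come from 1 cell line, and nothing says that the 2 libraries of a group were separate cultures, so the p-values measure only the spread between these libraries, which may be technical.

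YAP, made from YAP1, and TAZ, made from WWTR1, are coactivators that cannot bind DNA by themselves and act mainly through the TEAD transcription factors. The Hippo kinases, among them LATS1 and LATS2, phosphorylate YAP and TAZ and so keep them out of the nucleus. CTGF and CYR61, secreted matrix-associated proteins, and ANKRD1, a nuclear ankyrin repeat protein, are the targets most used as readouts of YAP and TAZ, while LATS2, AMOTL2 and, in many cells, AXL are targets as well. RNA levels do not show how much of YAP or TAZ is in the nucleus.

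The libraries were first set against the markers of the labelled cell line and of other cells. The 5 epithelial markers KRT8, KRT18, KRT19, EPCAM and CDH1 reached FPKM of 1 in all libraries, and their FPKM summed to between 6042 and 7031 in degron (++) and between 4093 and 4864 in degron (−) libraries. The keratins made up most of these sums. EPCAM lay between 176 and 205 FPKM in degron (++) and between 29.9 and 52.8 FPKM in degron (−) libraries. CDH1 lay between 62.8 and 66.6 FPKM and between 6.56 and 12.8 FPKM. Of the 3 mesenchymal markers, VIM was at 13.2 to 19.2 FPKM in degron (++) and 2376 to 2711 FPKM in degron (−) libraries, ZEB1 at 0.030 to 0.067 and 7.84 to 9.84 FPKM, and CDH2 at 41.2 to 45.0 and 4.74 to 9.68 FPKM. Leukocyte PTPRC stayed at or below 0.055 FPKM, CD3E and DCN were listed at 0, and the 3 endothelial markers summed to at most 0.556 FPKM, whereas CD68 lay between 2.91 and 4.62 FPKM in degron (++) and between 124 and 165 FPKM in degron (−) libraries, and COL1A1 between 0.531 and 0.826 FPKM and between 36.5 and 52.3 FPKM. COL3A1 and PDGFRB, the other fibroblast markers, stayed at or below 0.168 and 0.155 FPKM.

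PANC-1 is known for the loss of both copies of CDKN2A, and the libraries went against this, most of all those of degron (++) cells. CDKN2A lay between 100 and 112 FPKM in degron (++) and between 11.0 and 21.1 FPKM in degron (−) libraries, and its neighbours CDKN2B and MTAP showed the same order. Each gene in a degron (−) library was taken as a percentage of its own degron (++) mean at the same dose and time. The median of the 3 percentages, averaged over the 2 libraries, was 16.2% at 0 Gy/48 h, 11.5% at 4 Gy/30 h, and 19.3% at 4 Gy/48 h. The 3 genes differed, with ratios of the means over all 6 libraries of 0.155 for CDKN2A, 0.133 for CDKN2B and 0.227 for MTAP. Each of the 12 libraries resembled the libraries of its own population most. Whether the populations differ in their cells of origin, or whether degron (−) libraries hold RNA of cells like degron (++), was not tested, and neither can be told apart here from the sort.

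Promoter sequences are shown for the targets whose RNA separated the populations most, and for YAP1, the coactivator gene whose promoter also holds the motif searched, since TEAD proteins bind the motif GGAATG. RefSeq promoters of GRCh38.p14 were at hand for 7 of the 10 genes, as the 250 bases before the transcription start, and those of TEAD1, TEAD4 and CYR61 were not used here. In each line the capitals mark GGAATG, read 5′ to 3′ on the strand of the gene.
CTGF, minus strand, chr6:131951373-131951622: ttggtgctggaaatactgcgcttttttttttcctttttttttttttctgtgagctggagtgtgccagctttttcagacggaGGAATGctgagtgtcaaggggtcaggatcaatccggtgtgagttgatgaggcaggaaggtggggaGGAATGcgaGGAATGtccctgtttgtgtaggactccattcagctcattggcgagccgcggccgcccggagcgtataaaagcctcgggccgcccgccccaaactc
ANKRD1, minus strand, chr10:90921088-90921337: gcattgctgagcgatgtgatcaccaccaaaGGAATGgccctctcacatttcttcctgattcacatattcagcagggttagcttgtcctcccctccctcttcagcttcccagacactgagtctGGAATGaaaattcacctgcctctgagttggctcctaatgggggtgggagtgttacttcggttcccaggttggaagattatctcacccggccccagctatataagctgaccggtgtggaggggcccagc
YAP1, plus strand, chr11:102110197-102110446: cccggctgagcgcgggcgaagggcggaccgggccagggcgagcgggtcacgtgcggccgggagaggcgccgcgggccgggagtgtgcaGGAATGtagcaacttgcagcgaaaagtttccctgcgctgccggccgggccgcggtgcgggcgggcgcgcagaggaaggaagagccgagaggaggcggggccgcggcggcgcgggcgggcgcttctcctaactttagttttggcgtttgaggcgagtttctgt
The CTGF promoter held 3 copies of GGAATG, which started 169, 104 and 95 bases before the transcription start. The ANKRD1 promoter held 2 copies, at 220 and 128 bases. In addition it held 1 match, at 195 bases, to TGANTCA, a loose form of the AP-1 motif with any base at its centre. The letters there are TGATTCA, whose central T is not the C or G of the usual AP-1 motif.

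Both strands were searched in 10 promoters of the 7 genes, and 5 genes held at least 1 copy of GGAATG. YAP1 held 1 copy at 162 bases, AMOTL2 held 1 on the opposite strand in the second of its 2 promoters, AXL held 1 on the opposite strand in the second of its 2 promoters, and WWTR1 and LATS2 held none in these windows. Of 35116 RefSeq promoters of the same length, 11.9% held at least 1 copy, 0.94% at least 2 and 0.0826% at least 3. These shares count promoters, whereas the 5 genes were counted as genes, some of which have 2 promoters. TGANTCA stood in 6.57% of them. These matches are descriptions of the letters and not of binding.

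Levels of the 10 genes are given as FPKM, fragments per kilobase of exon per 1000000 mapped reads, which the authors deposited without counts, so the depth is unknown. Across the 6 libraries of each population, all 10 genes separated the populations without overlap, as did 71.3% of all genes tested. WWTR1 and CTGF were several-fold lower in degron (++) cells, YAP1 and CYR61 were lower by less, and ANKRD1, AMOTL2, AXL, TEAD4 and LATS2 were higher. The targets thus differed in both directions, with CTGF and ANKRD1 at the opposite ends. In these bulk libraries, fewer cells that express a gene and less of its RNA per cell cannot be told apart.

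**Figure D1:**
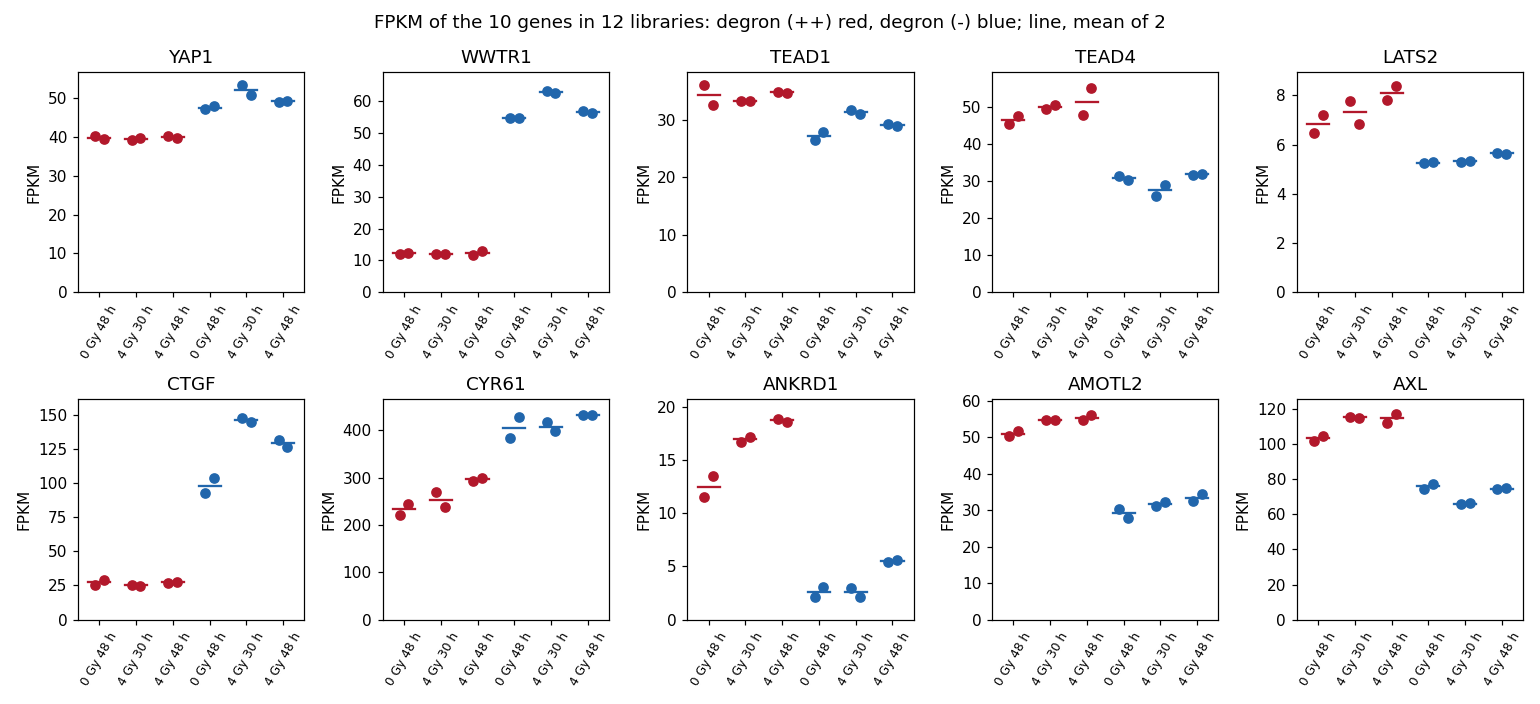
FPKM (y axis, from 0) of each of the 10 genes in the 12 libraries, by dose and time (x axis), with degron (++) libraries in red, degron (−) libraries in blue and a line at the mean of each pair. WWTR1 sits between 11.8 and 12.9 FPKM in red and between 54.8 and 63.3 FPKM in blue, while ANKRD1 sits between 11.5 and 18.9 FPKM in red and between 2.14 and 5.64 FPKM in blue.

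CYR61 was the most abundant of the 10 in each group, with 222 to 299.7 FPKM in degron (++) cells and 383 to 433 FPKM in degron (−) cells. In degron (++) cells at 0 Gy it was followed by AXL, AMOTL2, TEAD4, YAP1, TEAD1, CTGF, ANKRD1, WWTR1 and LATS2, and in this order only ANKRD1 and WWTR1 had libraries that overlapped. In degron (−) cells at 0 Gy the order was CYR61, CTGF, AXL, WWTR1, YAP1, TEAD4, AMOTL2, TEAD1, LATS2 and ANKRD1, with TEAD4, AMOTL2 and TEAD1 overlapping their neighbours. CTGF thus stood in place 7 of 10 in one population and place 2 of 10 in the other. Among all tested genes of a group, CYR61 lay at percentiles 97.3 to 98.7, and ANKRD1 at percentiles 54.0 to 64.1 in degron (++) and 18.9 to 31.8 in degron (−) cells.

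The populations were compared at each dose and time with limma on log2(FPKM + 1), a scale that understates the change of genes with low FPKM, with Benjamini-Hochberg adjustment over all 12946 genes. At 0 Gy/48 h, all 10 genes passed an adjusted p of 0.05, where 77.7% of all genes did, with 6 higher in degron (++) cells (37.6% of all genes) and 4 lower (40.2% of all genes). At 4 Gy/30 h, 9 of 10 passed, against 79.1% of all genes, and at 4 Gy/48 h all 10 passed, against 76.7%. So many genes differed between these populations that the number of calls among the 10 is close to that background. Their median log2 difference at 0 Gy was 0.32, beside −0.02 over all genes. When FPKM were rescaled to a sum of 1000000 in each library (TPM), the median over all genes moved to −0.21, −0.27 and −0.25 in the 3 comparisons, and the split of the 10 genes at 0 Gy became 4 higher and 4 lower.

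WWTR1, the gene of TAZ, was measured at 12.1 and 12.5 FPKM in degron (++) cells at 0 Gy, 11.9 and 12.1 FPKM at 4 Gy/30 h, and 11.8 and 12.9 FPKM at 4 Gy/48 h. In degron (−) cells the values were 54.8 and 54.8 FPKM, 63.3 and 62.6 FPKM, and 56.9 and 56.3 FPKM in the same order. Every degron (++) library was below every degron (−) library, by about the same factor at each dose and time. The log2 difference, degron (++) minus degron (−), was −2.07 at 0 Gy (standard error 0.045, adjusted p = 8.51e-10, limma), and −2.30 and −2.11 at 4 Gy. The value at 0 Gy is a 4.21-fold lower FPKM + 1.

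YAP1, its paralog, had 40.1 and 39.5 FPKM in unirradiated degron (++) cells and 47.2 and 47.8 FPKM in degron (−) cells. At 4 Gy it lay between 39.2 and 40.3 FPKM in degron (++) and between 48.9 and 53.3 FPKM in degron (−) cells. This was a small difference in a gene whose libraries agreed closely, with a log2 difference of −0.25 at 0 Gy (standard error 0.034, adjusted p = 0.000111, limma), −0.39 at 30 h and −0.29 at 48 h. The ratio of WWTR1 to YAP1 within a library, both per exon length, lay between 0.292 and 0.326 in degron (++) and between 1.14 and 1.23 in degron (−) libraries, so YAP1 was the more abundant of the pair in one population and WWTR1 in the other. YAP1 and WWTR1 together summed to 51.1 to 52.5 FPKM in each degron (++) library and 102 to 116.5 FPKM in each degron (−) library.

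**Figure D2:**
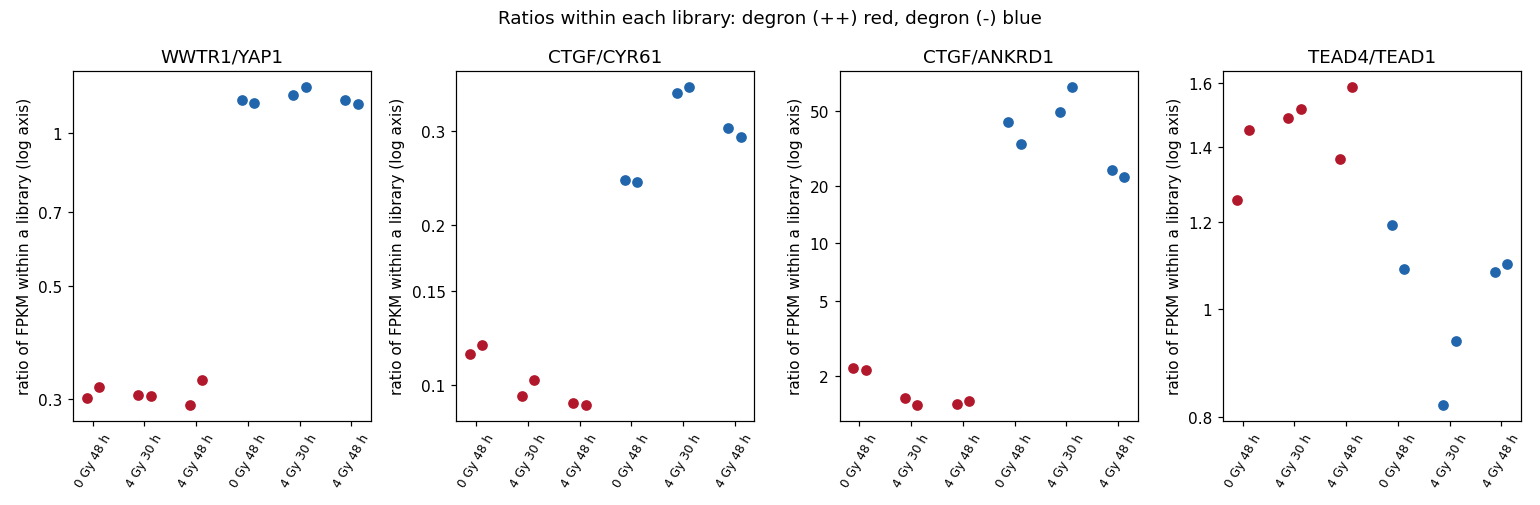
Ratios of FPKM within each library (y axis, log scale) for 4 pairs of genes, by dose and time (x axis), with degron (++) libraries in red and degron (−) libraries in blue. The ratio of CTGF to ANKRD1 runs from 1.42 to 2.2 in red and from 22.4 to 66.8 in blue, and the ratio of TEAD4 to TEAD1 from 1.25 to 1.59 and from 0.82 to 1.19.

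TEAD4, a DNA-binding partner of YAP and TAZ, was higher in degron (++) cells, with 45.2 and 47.4 FPKM at 0 Gy, 49.5 and 50.5 FPKM at 4 Gy/30 h, and 47.7 and 55.1 FPKM at 4 Gy/48 h. Degron (−) cells had 31.5 and 30.4 FPKM, 26.0 and 29.0 FPKM, and 31.7 and 31.8 FPKM. The groups did not overlap, and the log2 difference was 0.57 at 0 Gy (standard error 0.071, adjusted p = 6.49e-05, limma), 0.84 at 30 h and 0.67 at 48 h. Under TPM it was lower but past the threshold in each.

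TEAD1, whose levels in the populations were closer, had 36.0 and 32.6 FPKM in degron (++) and 26.4 and 27.9 FPKM in degron (−) cells at 0 Gy. At 4 Gy it lay between 33.3 and 34.9 FPKM and between 28.9 and 31.7 FPKM. The log2 difference was 0.32 at 0 Gy (standard error 0.049, adjusted p = 0.00024, limma) and 0.25 at 4 Gy/48 h (adjusted p = 0.00138, limma), and 0.08 at 4 Gy/30 h, which did not pass (adjusted p = 0.141, limma). The direction of TEAD1 rests on the scaling, since under TPM its difference was 0.12 at 0 Gy (adjusted p = 0.213, limma), −0.19 at 4 Gy/30 h, and −0.009 at 4 Gy/48 h. After quantile normalization it was 0.33 (adjusted p = 0.000448, limma), 0.06 (adjusted p = 0.362, limma) and 0.24 (adjusted p = 0.00345, limma) in the same order.

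The other TEAD genes were lower in abundance. TEAD2 lay between 3.62 and 4.83 FPKM in degron (++) and between 6.16 and 7.46 FPKM in degron (−) libraries, and TEAD3 between 6.65 and 8.71 FPKM and between 3.96 and 6.16 FPKM. At 0 Gy, the log2 difference was −0.44 for TEAD2 (adjusted p = 0.0067, limma) and 0.68 for TEAD3 (adjusted p = 0.00116, limma). At 4 Gy/30 h TEAD3 had 7.34 and 6.65 FPKM in degron (++) and 5.42 and 6.16 FPKM in degron (−) libraries and did not pass. Under TPM its log2 difference there was −0.008. The summed FPKM of the 4 TEAD genes had a mean of 93.6 ± 0.105 (SD, n = 2) in degron (++) and 69.7 ± 1.30 (SD, n = 2) in degron (−) cells at 0 Gy, and TEAD4 made up 48.3% and 50.7% of it in degron (++) and 44.5% and 44.2% in degron (−) libraries.

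LATS2, a kinase that restrains YAP and TAZ and is itself a target of them, had 6.45 and 7.21 FPKM in degron (++) and 5.24 and 5.28 FPKM in degron (−) cells at 0 Gy, and at 4 Gy between 6.84 and 8.37 FPKM and between 5.30 and 5.66 FPKM. All degron (++) libraries were above all degron (−) libraries, with a log2 difference of 0.32 at 0 Gy (standard error 0.071, adjusted p = 0.00272, limma), 0.39 at 30 h and 0.45 at 48 h. Under TPM the calls at 0 Gy (0.14, adjusted p = 0.0877, limma) and at 4 Gy/30 h (0.15, adjusted p = 0.0726, limma) were lost. After quantile normalization LATS2 passed at each dose and time, with log2 differences of 0.40, 0.49 and 0.56.

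CTGF, whose promoter held 3 copies of the TEAD motif, had 25.4 and 29.1 FPKM in degron (++) cells at 0 Gy, 25.7 and 24.3 FPKM at 4 Gy/30 h, and 27.1 and 27.5 FPKM at 4 Gy/48 h. Degron (−) cells had 92.8 and 103 FPKM, 147 and 145 FPKM, and 131 and 126 FPKM. The degron (++) libraries lay close together, and the degron (−) libraries were all far above them and highest at 30 h. The log2 difference was −1.81 at 0 Gy (standard error 0.069, adjusted p = 2.57e-08, limma), a 3.51-fold lower level, −2.50 at 30 h and −2.2 at 48 h.

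CYR61 was lower in degron (++) cells by less, with 222 and 245 FPKM at 0 Gy, 269 and 238 FPKM at 4 Gy/30 h, and 294 and 299.7 FPKM at 4 Gy/48 h. The degron (−) values were 383 and 429 FPKM, 417 and 398 FPKM, and 433 and 433 FPKM. The log2 difference was −0.79 at 0 Gy (standard error 0.073, adjusted p = 8.29e-06, limma), −0.68 at 30 h and −0.54 at 48 h. CTGF and CYR61, members of one protein family, thus both stood lower, but their ratio within a library also differed, lying between 0.0917 and 0.119 in degron (++) and between 0.241 and 0.363 in degron (−) libraries.

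ANKRD1, with 2 copies of the TEAD motif in its promoter, had 11.5 and 13.5 FPKM in degron (++) cells at 0 Gy, 16.7 and 17.2 FPKM at 4 Gy/30 h, and 18.9 and 18.6 FPKM at 4 Gy/48 h. In degron (−) cells it had 2.14 and 3.10 FPKM, 2.99 and 2.17 FPKM, and 5.39 and 5.64 FPKM. All degron (++) libraries were above all degron (−) libraries, the opposite order to CTGF. The log2 difference was 1.91 at 0 Gy (standard error 0.14, adjusted p = 1.71e-06, limma), 2.33 at 30 h and 1.6 at 48 h. The value at 0 Gy is a 3.75-fold higher FPKM + 1, where the means of FPKM itself were 12.5 in degron (++) and 2.62 in degron (−) cells. The ratio of CTGF to ANKRD1 within a library lay between 1.42 and 2.2 in degron (++) and between 22.4 and 66.8 in degron (−) libraries.

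AMOTL2, an angiomotin-like protein that binds YAP and is also induced by it, had 50.3 and 51.7 FPKM in degron (++) and 30.4 and 27.9 FPKM in degron (−) cells at 0 Gy. At 4 Gy it lay between 54.7 and 56.2 FPKM and between 31.1 and 34.4 FPKM. Its log2 difference was nearly the same at each dose and time, at 0.79 (standard error 0.048, adjusted p = 5.04e-07, limma), 0.77 and 0.71.

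AXL, a receptor tyrosine kinase, had 102 and 105 FPKM in degron (++) and 74.3 and 77.3 FPKM in degron (−) cells at 0 Gy, 115 and 115 FPKM and 65.6 and 66.3 FPKM at 4 Gy/30 h, and 112 and 117 FPKM and 74.3 and 74.9 FPKM at 4 Gy/48 h. It was higher in each degron (++) library at the same dose and time, and the groups did not overlap. The log2 difference was 0.44 at 0 Gy (standard error 0.034, adjusted p = 2.47e-06, limma), 0.80 at 30 h and 0.61 at 48 h. AXL and AMOTL2 kept their calls under TPM.

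**Figure D3:**
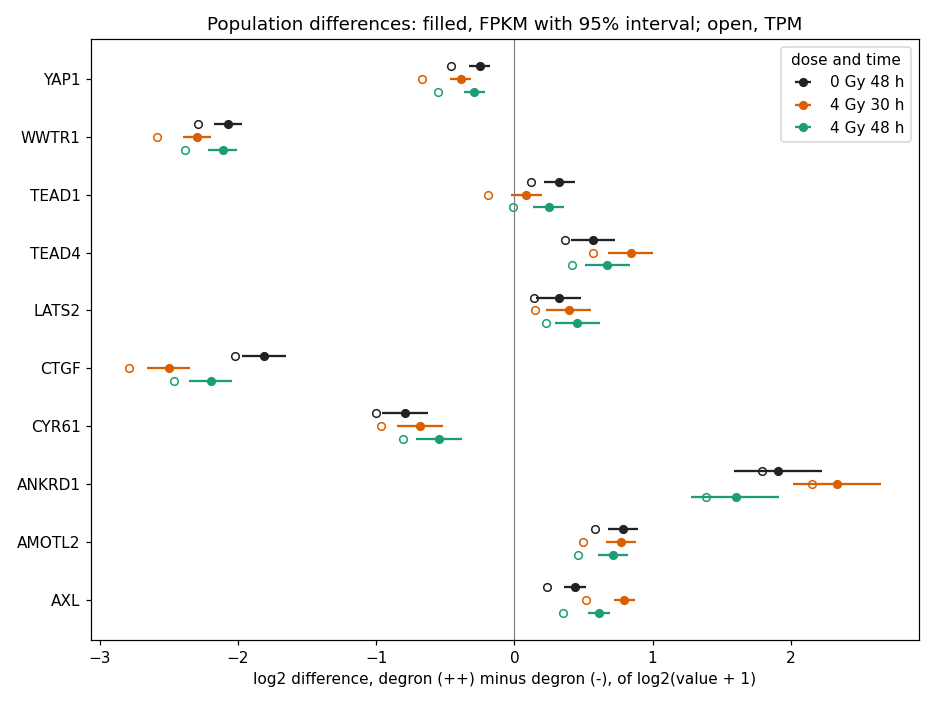
Log2 difference between degron (++) and degron (−) cells (x axis) for each of the 10 genes (y axis) at the 3 combinations of dose and time, with filled points and 95% intervals from FPKM and open points from TPM. WWTR1 at −2.07 to −2.30 and CTGF at −1.81 to −2.50 lie farthest below 0, ANKRD1 at 1.6 to 2.33 lies farthest above it, and the open points of TEAD1 at 4 Gy lie on the other side of 0 from the filled ones.

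The effect of dose was compared within each population at 48 h. In degron (++) cells, 0 of the 10 genes passed the threshold, against 1.82% of all genes, and 5 of 10 had an unadjusted p under 0.05 (limma), against 17.6% of all genes. CYR61 had means of 234 FPKM at 0 Gy and 297 FPKM at 4 Gy, with a log2 difference of 0.35 (standard error 0.073, adjusted p = 0.0561, limma). ANKRD1 differed by 0.55 (standard error 0.14, adjusted p = 0.0949, limma), AXL by 0.15 (standard error 0.034, adjusted p = 0.0693, limma), LATS2 by 0.22 (adjusted p = 0.165, limma) and AMOTL2 by 0.12 (adjusted p = 0.251, limma). YAP1, WWTR1, TEAD1 and CTGF had libraries that overlapped between the doses, and the 95% intervals of their log2 differences lay within −0.15 to 0.16.

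In degron (−) cells, 2 of the 10 genes passed, against 4.73% of all genes. CTGF rose by a log2 difference of 0.39 (standard error 0.069, adjusted p = 0.018, limma), from 92.8 and 103 FPKM to 131 and 126 FPKM, and ANKRD1 rose by 0.86 (standard error 0.14, adjusted p = 0.0133, limma), from 2.14 and 3.10 FPKM to 5.39 and 5.64 FPKM. Leaving out a library leaves 1 in its group, and this smaller sample can by itself end a call. Both calls were lost without degron (−) replicate 1 at 4 Gy/48 h (log2 difference 0.36 for CTGF and 0.89 for ANKRD1). They were also lost without replicate 2 of that group (0.42 and 0.83) and without replicate 1 at 0 Gy (0.32 and 0.67). Without that last library AMOTL2 passed, at 0.25 (adjusted p = 0.0464, limma), where it had missed at 0.19 (adjusted p = 0.0615, limma) with all libraries. In a fit of the 4 libraries compared alone, CTGF and ANKRD1 did not pass (adjusted p = 0.157 and 0.163, limma).

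The level of CDKN2A, CDKN2B and MTAP in degron (−) cells, as a percentage of that in degron (++) cells, was 16.2%, 11.5% and 19.3% at 0 Gy/48 h, 4 Gy/30 h and 4 Gy/48 h, beside means of 2.62, 2.58 and 5.51 FPKM for ANKRD1. Both were highest at 4 Gy/48 h, but the percentage was lower at 4 Gy/30 h than at 0 Gy while the mean of ANKRD1 was nearly the same. The percentage times the FPKM of ANKRD1 in degron (++) cells, which was itself higher at 4 Gy, came to 2.02, 1.95 and 3.62 FPKM. The part of these 3 genes, or of the cells they mark, in the rise of ANKRD1 was not tested.

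The effect of time was compared between 48 h and 30 h at 4 Gy. In degron (++) cells, 0 of the 10 genes passed the threshold, against 1.21% of all genes, and CYR61 alone had an unadjusted p under 0.05 (log2 difference 0.23, adjusted p = 0.183, limma), where 15.8% of all genes did. In degron (−) cells, 2 of the 10 passed, against 7.18% of all genes. ANKRD1 was higher at 48 h than at 30 h by a log2 difference of 0.87 (standard error 0.14, adjusted p = 0.0079, limma), and AXL by 0.18 (standard error 0.034, adjusted p = 0.0185, limma). The call of AXL was lost under TPM (0.14, adjusted p = 0.191, limma). It was also lost without any 1 of the 4 libraries, although its log2 difference stayed at 0.17 to 0.18. The call of ANKRD1 was lost without degron (−) replicate 2 at 4 Gy/48 h, with a log2 difference of 0.84. In a fit of those 4 libraries alone, neither passed (adjusted p = 0.0991 for ANKRD1 and 0.102 for AXL, limma). WWTR1, CTGF and YAP1 had log2 differences of −0.15 (adjusted p = 0.0851, limma), −0.18 (adjusted p = 0.166, limma) and −0.08 (adjusted p = 0.203, limma), which did not pass.

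**Figure D4:**
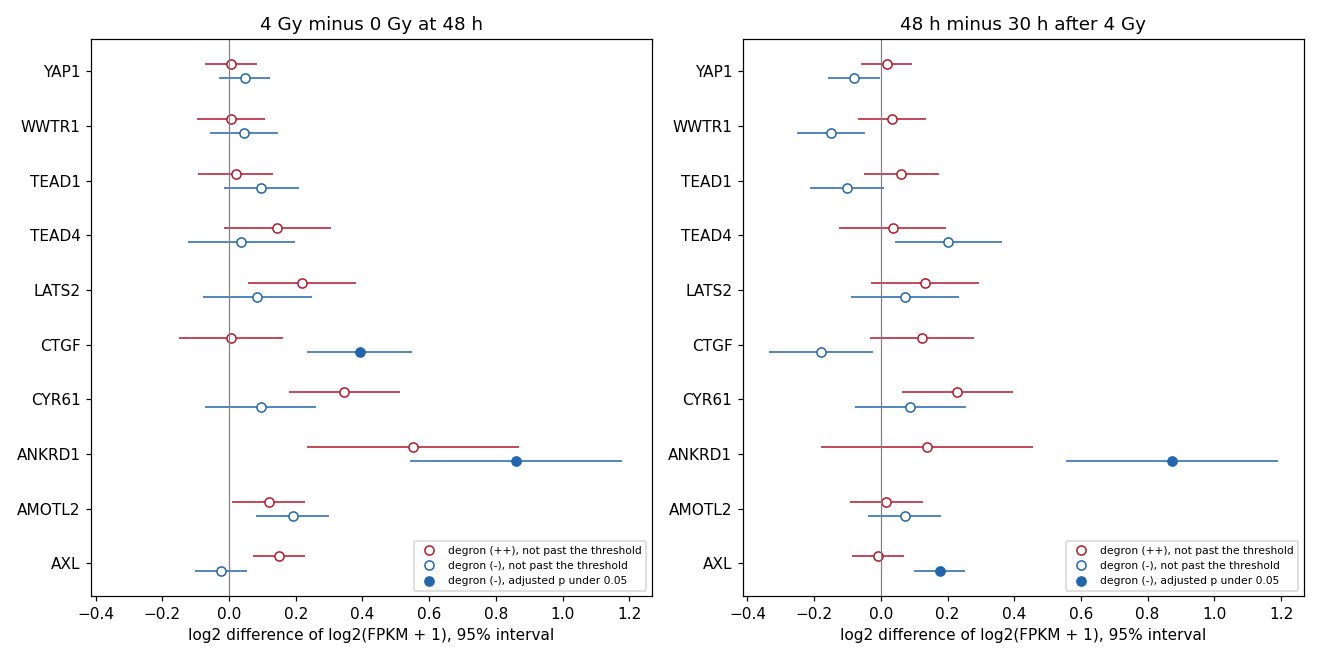
Log2 differences (x axis) with 95% intervals for each of the 10 genes (y axis), for 4 Gy minus 0 Gy at 48 h on the left and 48 h minus 30 h at 4 Gy on the right, in degron (++) cells (red) and degron (−) cells (blue), filled where the adjusted p was under 0.05. The filled points are CTGF at 0.39 and ANKRD1 at 0.86 on the left, and ANKRD1 at 0.87 and AXL at 0.18 on the right, all in degron (−) cells.

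Whether the populations differed in these changes was tested as an interaction, and 0 of the 10 genes passed in either. For dose, 0.0772% of all genes passed, and 3 of the 10 had an unadjusted p under 0.05 (limma), against 13.6% of all genes. These 3 were CTGF, with a difference of −0.39 between the log2 changes (95% interval −0.61 to −0.16, adjusted p = 0.161, limma), CYR61, with 0.25 (95% interval 0.015 to 0.49, adjusted p = 0.343, limma), and AXL, with 0.17 (95% interval 0.064 to 0.28, adjusted p = 0.185, limma). For time, 3.23% of all genes passed, and 5 of the 10 had an unadjusted p under 0.05 (limma), against 17.9% of all genes. ANKRD1 differed by −0.73 (95% interval −1.19 to −0.28, adjusted p = 0.094, limma), AXL by −0.18 (adjusted p = 0.0875, limma), CTGF by 0.30 (adjusted p = 0.148, limma), WWTR1 by 0.18 (adjusted p = 0.171, limma) and TEAD1 by 0.16 (adjusted p = 0.262, limma).

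The wider pathway was read from 5 lists, which hold some of the 10 genes as well. The target list holds 6 of them, the TEAD and VGLL family TEAD1 and TEAD4, the Hippo kinases LATS2, and the junctional regulators AMOTL2. The counts of each list at 0 Gy stand beside 77.7% of all genes past the threshold, 37.6% higher and 40.2% lower, and nothing particular to a list is read from them. In the TEAD and VGLL family, degron (++) cells at 0 Gy had higher levels of 5 of 7 tested genes and lower levels of 2, with a median log2 difference of 0.57, the value of TEAD4 itself, beside −0.02 over all genes, and VGLL2 was listed at 0. VGLL1 and VGLL3, vestigial-like cofactors that bind TEAD proteins at the surface YAP and TAZ use, were the most different. VGLL1 lay at 71.0 and 73.0 FPKM in degron (++) and 7.60 and 8.99 FPKM in degron (−) cells at 0 Gy, a log2 difference of 2.98 (standard error 0.10, adjusted p = 1.46e-08, limma). VGLL3 lay at 15 and 13.7 FPKM and at 2.41 and 2.07 FPKM, a log2 difference of 2.25 (standard error 0.074, adjusted p = 1.06e-08, limma).

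Among 18 Hippo kinases and adaptors, 6 were higher, 8 lower and 4 not past the threshold at 0 Gy, with 77.7% of all genes past it, and a median of −0.09. Under TPM the split was 1 higher and 11 lower, so the balance of this list rests on the scaling. TAOK2, a kinase upstream of the core cassette, was at 10.7 and 11.0 FPKM in degron (++) and 33.7 and 31.5 FPKM in degron (−) cells, a log2 difference of −1.50 (adjusted p = 6.05e-09, limma), and MAP4K1 was at or below 0.136 FPKM in degron (++) and between 1.75 and 2.56 FPKM in degron (−) libraries, through which alone it passed the filter on low values. STK3, LATS1 and NF2 were picked out after their values were seen. The core kinase STK3 was higher, by 1.09 (adjusted p = 7.93e-08, limma), while its substrate LATS1 was lower, by −0.85 (adjusted p = 3.74e-06, limma), and the upstream activator NF2 was lower, by −0.96 (adjusted p = 2.43e-06, limma).

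Among 15 tested junctional and scaffold regulators, 6 were higher, 5 lower and 4 not past the threshold, beside the same 77.7% of all genes, with a median of 0.03, and DCHS1 was below the filter. Under TPM 6 were higher and 7 lower. Of the angiomotins, which hold YAP at cell junctions, AMOTL1 was higher by 1.62 (adjusted p = 4.65e-07, limma), beside AMOTL2, and AMOT lay between 6.39 and 8.57 FPKM in degron (++) and between 0.725 and 0.967 FPKM in degron (−) libraries. AMOT passed the filter on low values only through degron (++) libraries, so its call is no support for the list. WWC1, also called KIBRA, was higher by 1.77 (adjusted p = 3.62e-08, limma) and the polarity protein CRB3 by 2.48 (adjusted p = 9.55e-06, limma). WTIP, a LIM domain protein, was at 0.296 and 0.329 FPKM in degron (++) and 25.3 and 24.3 FPKM in degron (−) cells, with a log2 difference of −4.30, and it passed that filter only through degron (−) libraries. The phosphatase PTPN14 was lower by −1.45 (adjusted p = 2.21e-08, limma) and the scaffold DLG5 by −1.14 (adjusted p = 2.83e-07, limma).

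Of 21 tested genes of the YAP/TAZ target list, 11 were higher, 8 lower and 2 not past the threshold, again beside 77.7% of all genes, with a median of 0.32 beside −0.02 over all genes, and RBMS3 was below the filter. Without the 6 members it holds, 7 of 15 were higher and 6 lower, with a median of −0.10. Under TPM the whole list stood at 9 higher and 10 lower. F3, the gene of tissue factor, was at 375 and 375 FPKM in degron (++) and 77.2 and 78.4 FPKM in degron (−) cells, a log2 difference of 2.25 (adjusted p = 2.85e-10, limma). IGFBP3, a binding protein of insulin-like growth factors, was higher by 3.61 (adjusted p = 4.42e-08, limma) and the secreted protein CCDC80 by 2.1 (adjusted p = 4.44e-07, limma), whereas MYOF, chosen after its values were seen, was lower by −0.90 (adjusted p = 1.04e-07, limma).

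**Figure D5:**
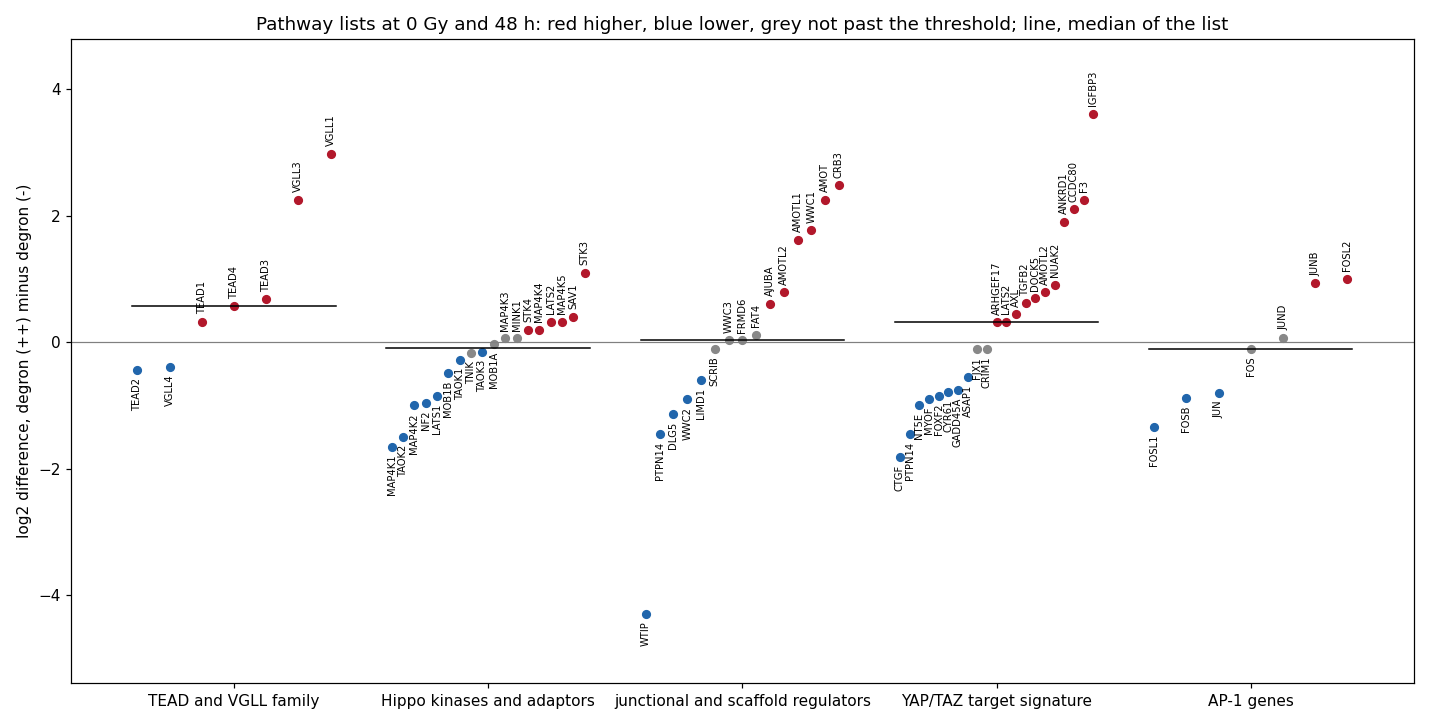
Log2 difference between degron (++) and degron (−) cells at 0 Gy/48 h (y axis) for the tested genes of 5 lists (x axis, ordered by value within a list), in red where higher, blue where lower and grey where not past the threshold, with a line at the median of each list. Each list spreads on both sides of 0, from WTIP at −4.30 to IGFBP3 at 3.61, and the medians lie between −0.11 and 0.57.

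In the dose comparison, 3 of 57 list genes outside the 10 passed in degron (++) cells, against 1.82% of all genes, and 12 had an unadjusted p under 0.05 (limma), against 17.6%. The tissue factor gene F3 rose by 0.29 (adjusted p = 0.0201, limma), GADD45A, a DNA damage response gene, by 0.67 (adjusted p = 0.014, limma) and FOSL1, an AP-1 subunit, by 0.33 (adjusted p = 0.0247, limma). F3 and FOSL1 lost their calls without any 1 of the 4 libraries, with adjusted p up to 0.112 and 0.136 (limma), and GADD45A lost its call without either library at 4 Gy/48 h or replicate 1 at 0 Gy, with adjusted p up to 0.0978 (limma). All 3 lost their calls in a fit of those 4 libraries alone (adjusted p of 0.134 to 0.242, limma).

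In degron (−) cells, 10 of the 57 list genes rose with dose, against 4.73% of all genes past the threshold, and 22 had an unadjusted p under 0.05 (limma), against 20.9%. All 10 lost their calls in a fit of those 4 libraries alone (adjusted p of 0.114 to 0.238, limma). VGLL1, by 0.88 (adjusted p = 0.00397, limma), and F3, by 0.57 (adjusted p = 0.000637, limma), kept their calls when any 1 of the 4 libraries was left out of the fit to all groups. The other 8 were VGLL3, WWC1, FRMD6, GADD45A, CCDC80, NUAK2, FOSL2 and JUNB, with log2 differences of 0.29, for FOSL2, to 0.60, for CCDC80. All 8 lost their calls without degron (−) replicate 2 at 4 Gy/48 h and without replicate 2 at 0 Gy. VGLL3, FRMD6, GADD45A and FOSL2 also lost theirs without replicate 1 at 4 Gy/48 h, and GADD45A, NUAK2 and FOSL2 without replicate 1 at 0 Gy. The highest adjusted p of each lay between 0.0552 and 0.211 (limma), with log2 differences between 0.25 and 0.80.

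With time at 4 Gy, 0 of 57 list genes outside the 10 passed in degron (++) cells, against 1.21% of all genes, with 14 under 0.05 unadjusted (limma), against 15.8%. In degron (−) cells 9 passed, all higher at 48 h, against 7.18% of all genes, and 23 were under 0.05 unadjusted (limma), against 22.3%. All 9 lost their calls in a fit of those 4 libraries alone (adjusted p of 0.0517 to 0.155, limma). VGLL1 (0.98, adjusted p = 0.00116, limma), VGLL3 (0.65, adjusted p = 0.00155, limma), WWC1 (0.57, adjusted p = 0.00256, limma), F3 (0.80, adjusted p = 6.39e-05, limma) and IGFBP3 (1.02, adjusted p = 0.00532, limma) kept their calls when any 1 of the 4 libraries was left out of the fit to all groups. CRB3 (1.03) lost its call without any 1 of them, CCDC80 (0.74) and TGFB2 (0.26) lost theirs without either library at 30 h or replicate 2 at 48 h, and JUNB (0.34) without replicate 2 at 30 h, with adjusted p up to 0.195, 0.0675, 0.175 and 0.0549 (limma). The percentage of CDKN2A, CDKN2B and MTAP times the degron (++) level of VGLL1 came to 8.79 FPKM at 30 h and 16.9 FPKM at 48 h, beside measured means of 7.64 and 16.1 FPKM, and for F3 it came to 53.7 and 88.4 FPKM beside 65.8 and 116 FPKM. For WWC1 it came to 5.52 and 9.38 FPKM beside 9.84 and 15.1 FPKM, for VGLL3 to 1.45 and 2.7 FPKM beside 1.62 and 3.12 FPKM, and for CCDC80 to 1.49 and 2.27 FPKM beside 1.14 and 2.59 FPKM. As for VGLL1, the product was above the measured mean at both times for IGFBP3, at 12.8 and 23.7 FPKM beside 5.95 and 13.2 FPKM, and for CRB3, at 1.62 and 2.92 FPKM beside 0.83 and 2.71 FPKM. It was far below the measured mean for AXL, at 13.3 and 22.1 FPKM beside 65.9 and 74.6 FPKM, TGFB2, at 1.82 and 3.3 FPKM beside 9.08 and 11.1 FPKM, and JUNB, at 5.94 and 11 FPKM beside 26.2 and 33.3 FPKM. The part of CDKN2A, CDKN2B and MTAP in these changes was not tested.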

How the data were processed

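RNA of 12 libraries was sequenced with a stranded mRNA kit. The authors deposited FPKM per gene symbol. The submitters' processing notes name TopHat2 2.1.1, Bowtie2 2.2.8, SAMtools 0.1.18, Cuffdiff 2.2.1 and hg19, and the annotation is not given in the sources used here. FPKM hold no counts, so no interval for counting error was given. FPKM summed to between 829654 and 916877 per library in degron (++) and between 707273 and 763064 in degron (−) cells, of which MIR622 held 28.6% to 30.0% and 22.5% to 27.1%. No pair of libraries held identical values.

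Values were tested as log2(FPKM + 1), with a pseudocount of 1, on the 12946 genes that reached FPKM of 1 in 2 or more libraries. limma 3.58.1 in R 4.3.3 fitted 6 group means to all 12 libraries, with eBayes and a trend, and an adjusted p of 0.05 as the threshold. In simulated data with 200 changed genes among 12946, 80.5% to 85.0% were recovered in the population comparisons. That is a far smaller share of changed genes than was called between the real populations. No change with dose or time was simulated. The 10 genes and the lists were chosen with earlier results of these data known. Named list genes are TEAD2 and TEAD3, those with a log2 difference of at least 1 past the threshold without overlap in all 3 population comparisons, those past the threshold in another comparison, and a few chosen after their values were seen. Genes most like 4 of the targets were taken by correlation over the 12 libraries. Promoters of GRCh38.p14 came from RefSeq and were matched by symbol, while the files use hg19.

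Alternatives were a pseudocount of 0.1, TPM, quantile normalization, a filter raised to FPKM 5 or left out, eBayes without trend, a replicate block, only the libraries compared, and each library left out. Python 3.11.15, numpy 2.4.6, pandas 2.3.3 and matplotlib 3.10.9 were used for the other steps.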

Additional observations from a re-analysis of the deposited data

Results flagged for a closer look

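None of the 10 genes differed between the populations in its change with dose or time by an interaction past the threshold (adjusted p under 0.05, limma), with 3 and 5 of them under 0.05 unadjusted, against 13.6% and 17.9% of all genes. Of 57 other genes of the pathway lists, 0 passed for dose, against 0.0772% of all genes, with 12 under 0.05 unadjusted (limma). For time 3.23% of all genes passed, 20 of the 57 were under 0.05 unadjusted (limma), and 6 were marked because their change from 30 h to 48 h at 4 Gy differed between the populations in that test, degron (++) minus degron (−). The difference of the log2 changes was −0.83 for F3 (adjusted p = 0.000541, limma), −0.78 for VGLL1 (adjusted p = 0.0298, limma), −0.55 for WWC1 (adjusted p = 0.0284, limma), −0.51 for VGLL3 (adjusted p = 0.0398, limma) and −0.87 for CCDC80 (adjusted p = 0.0394, limma). JUND, an AP-1 subunit, went the other way, with 0.57 (adjusted p = 0.0405, limma), from 24.3 and 24.7 FPKM at 30 h to 31.4 and 31.3 FPKM at 48 h in degron (++) cells and from 31.2 and 28.9 FPKM to 27.6 and 23.5 FPKM in degron (−) cells. Only F3 kept its call without any 1 of the 8 libraries. VGLL3 lost it without each, and VGLL1, WWC1, CCDC80 and JUND lost it without each but degron (−) replicate 1 at 4 Gy/48 h, with adjusted p up to 0.097 for VGLL1, 0.133 for VGLL3, 0.104 for WWC1, 0.123 for CCDC80 and 0.137 for JUND (limma). In a fit of those 8 libraries alone, the other 5 lost their calls (adjusted p up to 0.0734, limma) and F3 kept it (adjusted p = 0.0133, limma). Over the same interval the level of CDKN2A, CDKN2B and MTAP in degron (−) cells went from 11.5% to 19.3% of that in degron (++) cells. The part of that change in these interactions was not tested.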

How the results depend on the processing

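All 10 genes kept the direction of their population differences under each alternative except TEAD1, which under TPM stood at −0.19 at 4 Gy/30 h and −0.00882 at 4 Gy/48 h. TEAD3, of the lists, which had not passed at 4 Gy/30 h, stood there at −0.00841 under TPM. Also under TPM, TEAD1 at 0 Gy and LATS2 at 0 Gy and at 4 Gy/30 h lost their calls. The cause was not tested.

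The number of the 10 genes past the threshold was 2 for dose in degron (−) cells and 0 with only the libraries compared, where fewer samples enter the fit, and 0 to 2 with each library left out. For time in degron (−) cells it was 2, against 1 under TPM, 0 with only the libraries compared and 0 to 1 with each library left out. With the replicate number as a block, the counts were 10, 9 and 10 for the populations, 2 for dose and 2 for time in degron (−) cells, and the block changed no call among the 10 genes. Of the list genes, it ended the calls of CCDC80 (0.60, adjusted p = 0.0527, limma) and NUAK2 (0.44, adjusted p = 0.0562, limma) for dose and CRB3 (1.03, adjusted p = 0.0547, limma) for time in degron (−) cells, and those of VGLL3 (−0.51, adjusted p = 0.0559, limma) and CCDC80 (−0.87, adjusted p = 0.0607, limma) in the interaction with time. TPM ended the calls of F3 and FOSL1 for dose in degron (++) cells, VGLL3, GADD45A and FOSL2 for dose and TGFB2 for time in degron (−) cells, and VGLL1, VGLL3 and JUND in that interaction. Without the filter on low values, VGLL3, CCDC80 and NUAK2 lost theirs for dose, CRB3 for time, and VGLL1, VGLL3, CCDC80 and JUND in the interaction, and without the trend NUAK2 and JUND. Equal replicate numbers gave little sign of pairing. The differences of replicate 1 minus replicate 2 correlated across genes at −0.038 to 0.122 in 15 pairs of groups, with 2 pairs over 0.1.

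Directions also turned in differences near 0 that did not pass. For dose in degron (++) cells, quantile normalization gave −0.017 for YAP1, −0.0071 for TEAD1 and −0.013 for CTGF, and TPM gave −0.065 for YAP1, −0.062 for WWTR1, −0.0505 for TEAD1 and −0.065 for CTGF. With each library left out, the range was −0.0057 to 0.0171 for YAP1, −0.0573 to 0.0683 for WWTR1, −0.0498 to 0.0897 for TEAD1 and −0.0908 to 0.102 for CTGF. For dose in degron (−) cells, AXL ran from −0.0517 to 0.00455. For time in degron (++) cells, AMOTL2 gave −0.000103 under TPM, and with each library left out the range was −0.0035 to 0.0349 for AMOTL2, −0.0379 to 0.0221 for AXL, −0.0298 to 0.0958 for WWTR1 and −0.0674 to 0.138 for TEAD4. In the interactions, WWTR1 ran from −0.102 to 0.0232 for dose and LATS2 from −0.0205 to 0.141 for time.

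Counts over all genes moved more. For dose in degron (++) cells they went from 236 to 17 with only the libraries compared, 57 under TPM, 125 with the block, 128 without the trend, 149 after quantile normalization and 1 to 36 with each library left out. For dose in degron (−) cells they went from 612 to 8, with only the libraries compared, and 341, under TPM, and to 115 to 364 with each library left out. For time in degron (++) cells they went from 156 to 40 under TPM, 78 without the trend, 88 with the block, 12 with only the libraries compared and 15 to 25 with each left out. For time in degron (−) cells they went from 930 to 611, 7 with only the libraries compared, and 281 to 665 with each left out. The interaction with dose had 10, and 17 with the other pseudocount, 22 with the filter at FPKM 5, 35 after quantile normalization, 20 under TPM, 2 with the block, 6 with only the libraries compared and 0 to 18 with each left out. The interaction with time had 418, and 273 without the filter, 225 under TPM, 128 with only the libraries compared and 67 to 379 with each left out.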

Other observations

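AP-1 subunits, which often share regulatory regions with TEAD proteins, were also split. Of 7 tested at 0 Gy/48 h, FOSL2 and JUNB were higher in degron (++) cells, FOSL1, FOSB and JUN were lower, and FOS and JUND did not pass, with a median log2 difference of −0.11, where 77.7% of all genes passed. FOSB passed the filter on low values only through degron (−) libraries. FOSL1 lay at 91.7 and 91.7 FPKM in degron (++) and 220 and 250 FPKM in degron (−) cells, a log2 difference of −1.35 (adjusted p = 2.3e-08, limma). FOSL2 was higher by 1.0 (adjusted p = 3.11e-07, limma) and JUNB by 0.93 (adjusted p = 3.87e-07, limma).

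The genes whose levels followed 4 of the targets most closely were found by the Pearson correlation over the 12 libraries after the mean of each population was taken away, a description over libraries that share their dose and time. For CTGF these were ARSI (0.96), C20orf194 (0.945) and DHRS7B (0.94). ARSI was at or below 0.057 FPKM in degron (++) and between 8.68 and 10.9 FPKM in degron (−) libraries. It passed the filter on low values only through degron (−) libraries, and its correlation within degron (++) libraries rests on values near 0. For CYR61 they were LATS2 (0.93), PIP5K1A (0.917) and MID1 (0.891), so the closest gene of all those tested was another of the 10. Within the populations the correlations were uneven, at 0.969 in degron (++) and 0.675 in degron (−) libraries for CYR61 and LATS2, and at 0.647 and 0.992 for CTGF and ARSI. XPO6 (0.937), AKAP2 (0.93) and MET (0.93) came closest to ANKRD1, and RPL19P12 (0.943), FTSJ3 (0.933) and AHCY (0.92) to AXL. RPL19P12 is a pseudogene that may share reads with its parent gene, so its level is uncertain. CTGF and CYR61 themselves correlated at 0.233 in this way. CTGF correlated about equally with YAP1 (0.798), WWTR1 (0.795) and TEAD1 (0.765), and at −0.398 with TEAD4 and −0.587 with AXL. YAP1 and TEAD1 correlated at 0.874. YAP1 stayed between 39.2 and 40.3 FPKM in degron (++) libraries and lay between 47.2 and 53.3 FPKM in degron (−) libraries. How many of all genes correlate as closely was not counted. With the other targets YAP1 correlated at −0.706 for AXL, −0.0745 for LATS2, −0.0407 for ANKRD1, 0.0278 for CYR61 and 0.237 for AMOTL2.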
